A study of Homo sapiens with 6 samples.

Results

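SR proteins and heterogeneous nuclear ribonucleoproteins (hnRNPs) are the RNA-binding proteins that most widely set which exons a cell keeps. The genes described here are the 36 of 16000 genes in the deposited table whose names begin with SRSF, SRRM or HNRNP followed by their number or letter code, with 12 pseudogene names left out. They comprise 11 SRSF genes, 4 SRRM genes and 21 HNRNP genes. GENCODE release 29 holds 42 such names. The 6 that were not among the rows used are HNRNPCL1, HNRNPCL2, HNRNPCL3, HNRNPCL4, SRRM4 and SRSF12, and they were not analysed here.

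Poly(A) RNA was sequenced from LNCaP, an established, androgen-sensitive human prostate cancer cell line. ALDEFLUOR, a fluorescent readout of aldehyde dehydrogenase activity, was used to sort the brightest 10% of cells (ALDH high, 3 samples) and the dimmest 10% (ALDH low, 3 samples). Both groups were LNCaP cells kept in RPMI-1640 with fetal bovine serum at 10%, and no other treatment is given. How long after the sort RNA was taken is not given in the sources used. Nothing in the labels makes the 3 samples per group separate sorts or cultures, so p-values may measure technical spread alone. The comparison asks whether cells with high and low enzyme activity differ in their splicing factor RNA.

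SR proteins carry RNA-recognition motifs and a tail rich in arginine and serine, bind exonic enhancers and help the U1 and U2 particles to find splice sites. SRRM proteins have long serine and arginine repeats, and SRRM1 and SRRM2 act as coactivators without a classical RNA-recognition motif. Many hnRNPs coat nascent RNA and often oppose exon inclusion, and the balance between hnRNPA1 and SR proteins is a textbook case of splice-site choice. Many of these proteins limit their own level by splicing in an exon with an early stop codon, called a poison exon, which sends their mRNA to nonsense-mediated decay.

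All 11 SRSF genes have at least 1 annotated decay transcript in GENCODE 29 (100%), as do 2 of 4 SRRM genes (50%) and 13 of 21 HNRNP genes (61.9%). The share is 72.2% over the 36 genes and 43.3% over the 12683 protein-coding genes of the table. The values below count all exonic reads of a gene, so productive and decay transcripts are added together. In 10 of the 36 genes, 14 such exons lie between other exons, overlap no exon of a coding transcript and hold the whole annotated stop codon. For each of the 5 SRSF genes that have one, the longest such exon is printed, since the SRSF genes were the family in which every gene has a decay transcript. Each stretch runs 5′ to 3′ from the first base of the exon to the stop codon, which is in capitals (GENCODE 29 transcripts, GRCh38). The exons are SRSF3 chr6:36599821-36600276 on the plus strand (456 bases), SRSF7 chr2:38748898-38749346 on the minus strand (449 bases), SRSF4 chr1:29159864-29160058 on the minus strand (195 bases), SRSF6 chr20:43459153-43459420 on the plus strand (268 bases) and SRSF9 chr12:120464733-120464822 on the minus strand (90 bases).
SRSF3: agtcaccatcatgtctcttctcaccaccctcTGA
SRSF7: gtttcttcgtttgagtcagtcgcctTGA
SRSF4: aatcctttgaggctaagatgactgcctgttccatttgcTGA
SRSF6: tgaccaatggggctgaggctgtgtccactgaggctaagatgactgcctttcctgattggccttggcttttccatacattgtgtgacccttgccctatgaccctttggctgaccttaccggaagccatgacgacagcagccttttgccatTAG
SRSF9: aaaactatTAG
The stop codon ends at base 34 of the SRSF3 exon, base 28 of the SRSF7 exon, base 41 of the SRSF4 exon, base 152 of the SRSF6 exon and base 11 of the SRSF9 exon. In the shorter exons not printed it ends at base 82 (SRSF3), base 56 (SRSF4) and base 64 (SRSF7), and at base 22 of a shorter form of the printed SRSF7 exon. The SRSF4 and SRSF6 stretches share a run of 20 bases, tgaggctaagatgactgcct. Among the 86 pairs of stretches from different genes, the next longest shared run was 8 bases and the median was 5 bases.

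The 6 libraries held 23817310 to 30617873 recovered reads each, with 0.399% to 0.630% in spike-in sequences. All 10 luminal prostate markers checked were in the table, and their summed level ran between 204496 and 217394 normalized reads in ALDH high, against 196145 to 232564 in ALDH low. Only CD68 of 6 leukocyte markers, VWF of 4 endothelial markers and COL1A1 and PDGFRB of 6 fibroblast markers were listed. The summed fibroblast pair ran between 1539 and 1846 normalized reads in ALDH high, against 881 to 1519 in ALDH low, without overlap, while COL1A2, COL3A1, DCN and LUM were not listed. Whether this pair plays a part in any value below was not tested. The libraries did not sort by label in every measure. Mitochondrial transcripts took 4.90%, 2.89% and 4.90% of gene reads in ALDH high 1, 2 and 3, against 2.01%, 4.55% and 2.996% in ALDH low 1, 2 and 3. ALDH high 2 was thus nearer to ALDH low 1 and 3, and ALDH low 2 nearer to ALDH high 1 and 3, so counts of calls, family splits and the genes that moved most are also given without both libraries numbered 2. What part this library pattern plays in the values below was not tested.

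None of the 36 genes passed an adjusted p of 0.05 between ALDH high and ALDH low in limma with Benjamini-Hochberg adjustment over all 16000 genes, where 0% of genes were called. In this limma fit of all 6 libraries the smallest adjusted p over all genes was 0.984, so none from it is smaller for a gene named below. The fits with edgeR and DESeq2 on the recovered reads also called 0 of the 36. At an unadjusted limma p under 0.05, SRRM2 alone of the 36 was counted (2.78%), against 338 of all genes (2.11%). With both libraries numbered 2 left out, 107 genes were called (0.669%), none of them among the 36. That pair was chosen with the library pattern of these data known. Without it the groups did not overlap in 48.2% of all genes, against 6.99% with all 6 libraries. Fewer libraries also make such separation easier, so these calls cannot stand as support for a difference. The intervals were narrow for abundant genes, given the spread between these samples. The 95% interval of the difference lay within 2-fold in both directions for 34 of the 36 genes. The share was 74.7% of all genes and 98.2% of the genes that averaged 1000 normalized reads or more. The exceptions among the 36 were SRRM3 and SRRM5, the pair with the fewest reads. A difference of 2-fold or more is therefore outside the interval for the other 34 genes, while smaller ones are not resolved. Like the p-values, the intervals rest on a spread between samples that may be technical alone. In that case they do not bound the difference between separate sorts or cultures.

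The SR and hnRNP genes varied between libraries about as much as other abundant genes. Their median within-group standard deviation was 0.19 on the log2 scale, beside 0.21 for the 5418 genes that averaged 1000 normalized reads or more, a level that 33 of the 36 reached. HNRNPF, an hnRNP that binds runs of G, varied least, with its highest library 1.14 times its lowest. HNRNPDL at 1.14 times, SRSF6 at 1.15 times and SRSF11 at 1.16 times followed.

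**Figure D1:**
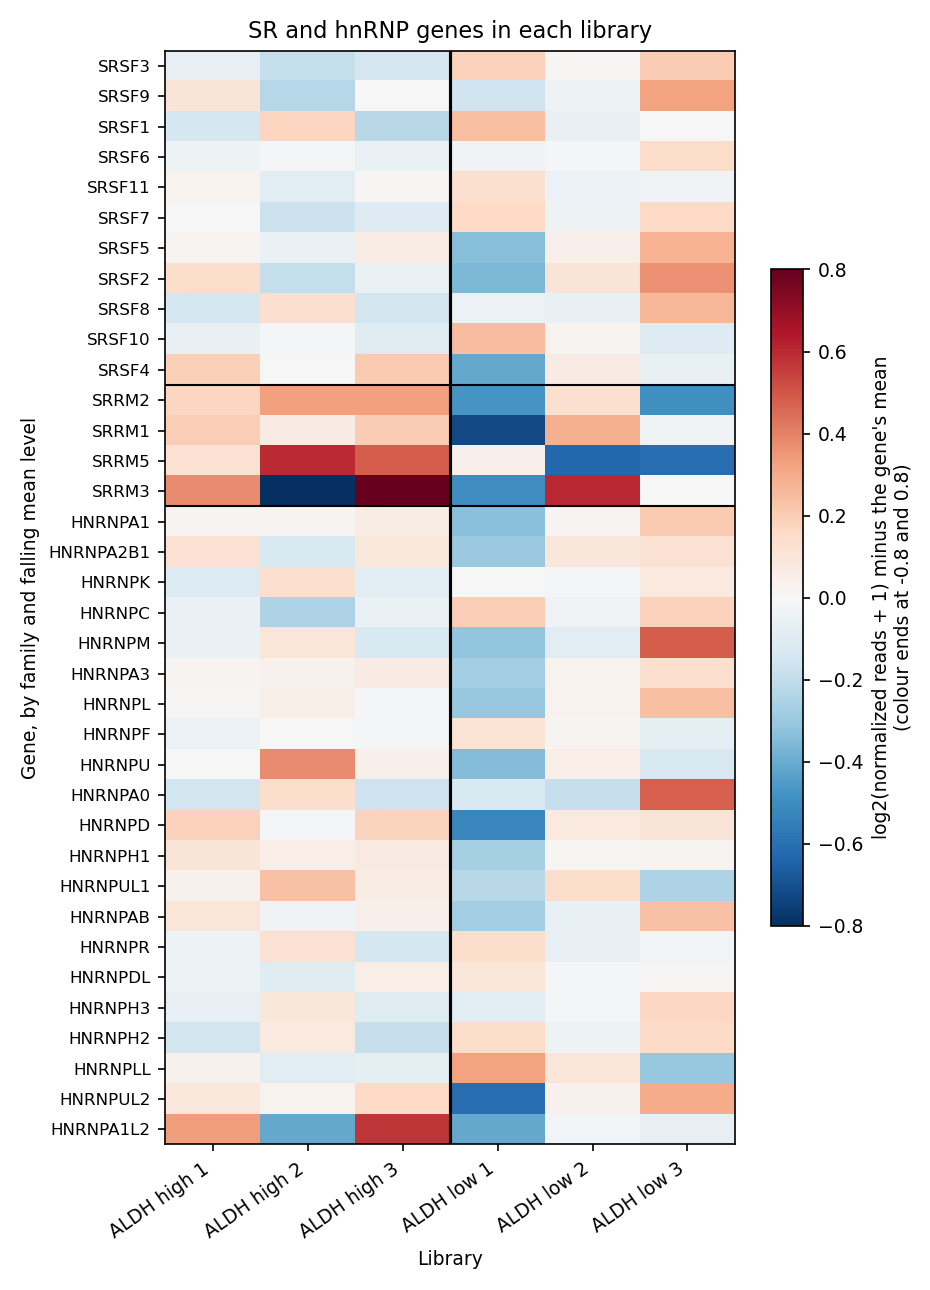
Each row is 1 of the 36 genes and each column 1 library, ALDH high left of ALDH low. Colour gives the log2(normalized reads + 1) minus the gene's mean over the 6 libraries, with the scale ending at -0.8 and 0.8. ALDH low 1 is the lowest library for 14 genes and ALDH low 3 the highest for 16.

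Per length of exon, HNRNP transcripts made up most of the pool. On the scale of RPKM (reads scaled to exon length and to the library total), HNRNP genes gave 77.9% of the summed level of the 36 genes, SRSF genes 20.2% and SRRM genes 1.88%. HNRNPA1, which binds exonic silencers, was the most abundant at 380.5 ± 35.6 (SD, n = 6 libraries) and ranked 105 among all 16000 genes on this scale. HNRNPK, a binder of C-rich RNA, followed at 166.4 ± 12.4. HNRNPF stood at 145.4 ± 11.95 and HNRNPA2B1 at 131.8 ± 13.8, so the spreads of neighbours in this order overlap while HNRNPA1 stands clear of them. SRSF9 at 73.7 ± 7.13, SRSF1 at 71.2 ± 10.3 and SRSF3 at 63.8 ± 6.17 led the SR genes and did not differ beyond their spread. SRRM2 stood at 29.5 ± 7.84. SRRM3, which in the nervous system promotes neuronal microexons, was the lowest at 0.0944 ± 0.0530, and SRRM5 stood at 0.295 ± 0.111. HNRNPA1L2, an HNRNPA1-like gene, was the lowest HNRNP gene at 3.12 ± 0.888.

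**Figure D2:**
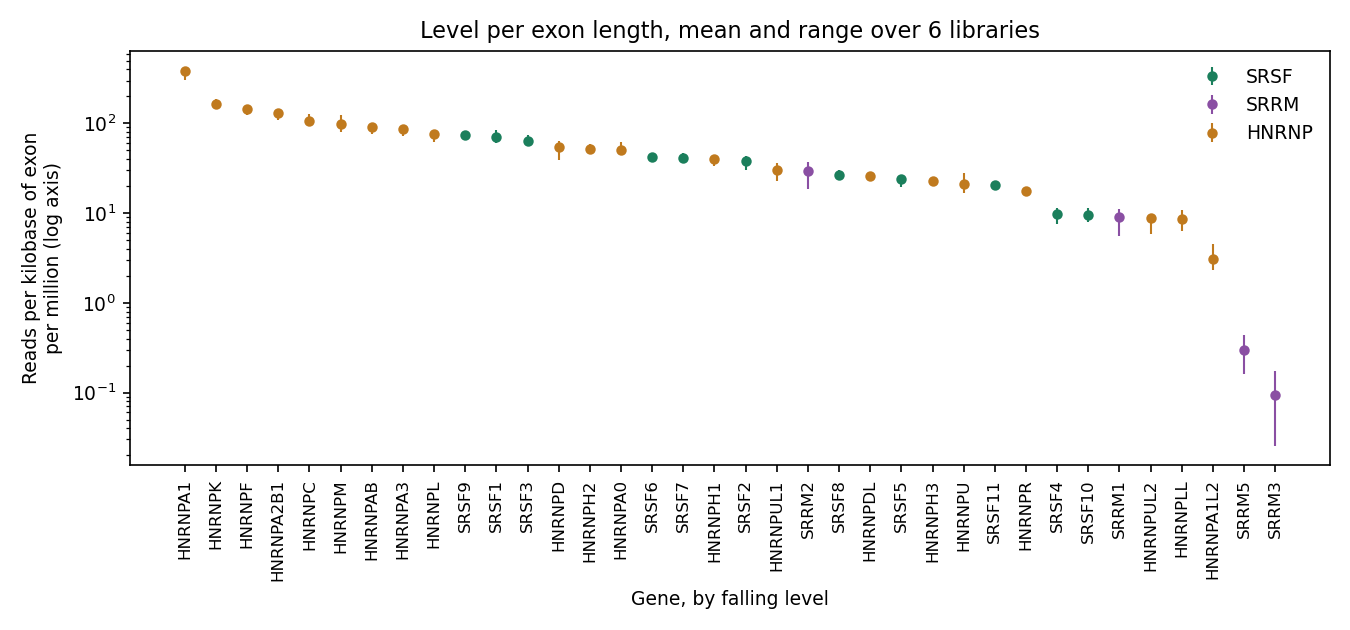
Level of each gene in RPKM on a log axis, by falling level. Points are means and lines the range over 6 libraries. HNRNPA1 stands at 380.5 and the lowest gene, SRRM3, at 0.0944.

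The 3 values of a group are given in the order of its libraries 1, 2 and 3, in normalized reads, meaning reads divided by the library's size factor. A range in parentheses after a difference is its 95% interval. Most SRSF differences lay below 0. Of 11 differences (ALDH high minus ALDH low, log2 of normalized reads + 1), 2 were above 0 and 9 below, with a median of -0.08. The median over all 16000 genes was 0.02, with 52.3% above 0 and 47.7% below. Among the 5418 genes that averaged 1000 normalized reads or more, 2457 lay above 0 and 2961 below, with a median of -0.02. Without ALDH high 2, or without ALDH low 3, the SRSF genes split into 5 above 0 and 6 below, and without both libraries numbered 2 into 3 above and 8 below. None passed the test.

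SRSF3, the smallest SR protein, which also exports mRNA and regulates its own poison exon, was the only SRSF gene whose groups did not overlap. SRSF3 (ENSG00000112081, chr6:36594353-36605600) had 11657, 10696 and 11145 normalized reads in ALDH high, against 13863, 12297 and 14041 in ALDH low. Every ALDH high library lay under every ALDH low library. The group means were 11166 ± 481 (SD, n = 3) in ALDH high, against 13400 ± 959 (SD, n = 3) in ALDH low. On the log2 scale the difference was -0.26 (95% interval -0.59 to 0.06, limma adjusted p = 0.984). It kept its sign in all 11 alternatives that could change the value, between -0.32 and -0.22. Groups that do not overlap with ALDH high the lower one were found in 3.32% of all genes.

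SRSF7, the closest relative of SRSF3 and the SR protein with a zinc knuckle, had 4524, 4023 and 4227 normalized reads in ALDH high, against 5054, 4402 and 5056 in ALDH low. The groups overlapped only because ALDH low 2 fell between the ALDH high libraries. Its log2 difference was -0.18 (95% interval -0.49 to 0.13). The ratio of SRSF3 to SRSF7 reads was 2.58, 2.66 and 2.64 in ALDH high, against 2.74, 2.79 and 2.78 in ALDH low. The ratio averaged 2.62 ± 0.0427 (SD, n = 3) in ALDH high, against 2.77 ± 0.0258 (SD, n = 3) in ALDH low, with no overlap between the groups. A two-sided exact permutation test gave p = 0.1, the smallest that 3 samples against 3 allow, and 0.72 after Benjamini-Hochberg adjustment over the 12 paralog ratios computed. None of the other 11 ratios separated the groups.

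SRSF4, a large SR protein with a long arginine and serine tail, had the highest SRSF difference. Its levels were 2676, 2335 and 2712 normalized reads in ALDH high, against 1765, 2456 and 2253 in ALDH low. ALDH low 1 was the lowest library and ALDH low 2 lay inside the ALDH high range. The log2 difference was 0.27 (95% interval -0.10 to 0.63). It was 0.13 without ALDH low 1 and 0.43 without both libraries numbered 2. Its relative SRSF6 had 5038, 5136 and 4985 normalized reads in ALDH high, against 5068, 5120 and 5739 in ALDH low. These values were nearly level across all libraries except ALDH low 3, and the difference of -0.07 (-0.37 to 0.23) was -0.01 without that library.

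SRSF1, the founding SR protein and a known proto-oncogene, had 5780, 7188 and 5458 normalized reads in ALDH high, against 7521, 6123 and 6393 in ALDH low. ALDH high 2 was the highest library of its group, and the groups overlapped, with a difference of -0.13 (-0.48 to 0.23). That difference was -0.04 without ALDH low 1, -0.05 without ALDH high 3, -0.24 without ALDH high 2 and -0.30 without both libraries numbered 2. In GENCODE 29, 56.6% of the exonic bases of SRSF1 also belong to a gene on the same strand, AC015813.2, so its level is uncertain. SRSF9, a small relative of SRSF1, had 7993, 6334 and 7437 normalized reads in ALDH high, against 6656, 7204 and 9286 in ALDH low. The groups overlapped widely, with a difference of -0.08 (-0.46 to 0.30) that turned to 0.01 without ALDH high 2 and 0.06 without ALDH low 3. GATC on the opposite strand covers 46.2% of the exonic bases of SRSF9, and the labels leave open whether strand was kept, so reads of overlapping genes cannot be told apart. The same holds for SRSF2, where MFSD11 covers 36.7%.

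SRSF5, first found as an early gene of liver regeneration in the rat, had 3550, 3361 and 3635 normalized reads in ALDH high, against 2756, 3592 and 4230 in ALDH low. ALDH low held both the lowest and the highest library. The difference was 0.02 (-0.36 to 0.40), and its sign turned in edgeR and DESeq2 and without ALDH high 3 or ALDH low 1. SRSF10, an SR protein that represses splicing once dephosphorylated by heat shock, had 2516, 2606 and 2458 normalized reads in ALDH high, against 3109, 2668 and 2448 in ALDH low. ALDH low 1 was the highest library and ALDH low 3 the lowest, with a difference of -0.11 (-0.43 to 0.21). It was -0.02 without ALDH low 1 and -0.19 without ALDH low 3. SRSF11 had 4810, 4431 and 4741 normalized reads in ALDH high, against 5143, 4562 and 4617 in ALDH low, and the groups overlapped with a difference of -0.03 (-0.34 to 0.27). That of SRSF11 was above 0 with total-count scaling (0.0113), without ALDH high 2 (0.0026) and without ALDH low 1 (0.0214). SRSF2, which binds exonic enhancers and is a recurrent mutation target in myeloid disease, averaged 2993 ± 349 normalized reads (SD, n = 3) in ALDH high, against 3200 ± 786 (SD, n = 3) in ALDH low. SRSF8, a paralog of SRSF2, averaged 2807 ± 325 (SD, n = 3) in ALDH high, against 3016 ± 397 (SD, n = 3) in ALDH low. Their differences were -0.07 and -0.10, both well inside the spread between libraries.

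**Figure D3:**
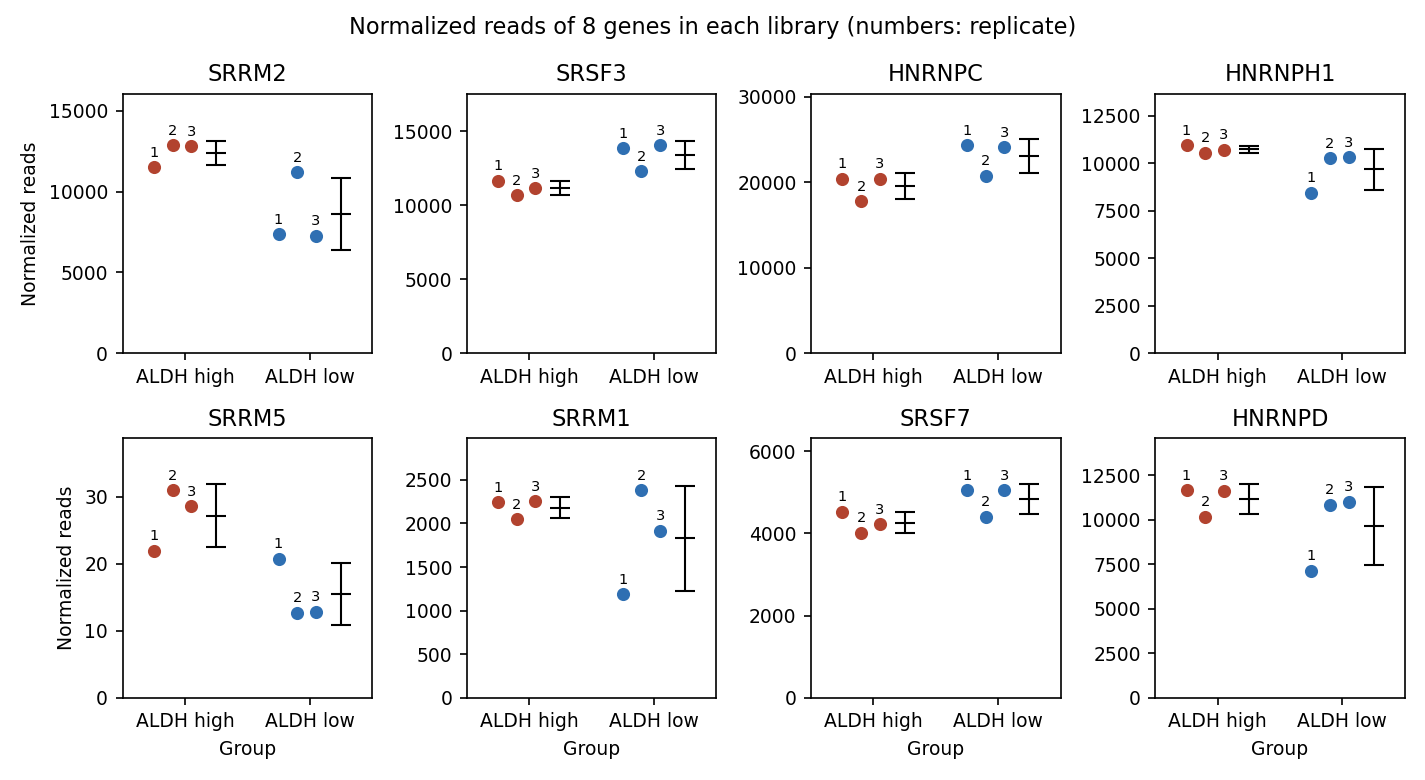
Normalized reads of 8 genes in each library, with ALDH high left of ALDH low and the replicate number above each point. Bars to the right of the points are the mean and SD (n = 3 each). SRRM2 lies between 11526 and 12858 in ALDH high and between 7283 and 11186 in ALDH low.

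Of the 4 SRRM genes, 3 had a difference above 0 and the median was 0.43, while in edgeR, in DESeq2, with a pseudocount of 10 and without both libraries numbered 2 all 4 lay above 0. None passed the test. SRRM2, the scaffold of nuclear speckles and a component of the catalytic spliceosome, showed the largest difference among the 33 of the 36 genes that averaged 1000 normalized reads or more. SRRM2 (ENSG00000167978, chr16:2752329-2772538) had 11526, 12858 and 12822 normalized reads in ALDH high, against 7366, 11186 and 7283 in ALDH low. The groups did not overlap, yet ALDH low 2 came close to ALDH high 1, and ALDH low 1 and 3 lay well under all other libraries. The means were 12402 ± 759 (SD, n = 3) in ALDH high, against 8612 ± 2230 (SD, n = 3) in ALDH low. Its log2 difference was 0.55 (95% interval 0.13 to 0.97), with an unadjusted limma p of 0.0145 and a Benjamini-Hochberg adjusted p of 0.984. In the authors' deposited table, where positive values mean higher in ALDH low, SRRM2 has a log2 fold change of -0.53 with p = 0.00944 and adjusted p = 0.998. The difference kept its sign in all 11 alternatives that could change it, between 0.45 and 0.76. It was 0.73, with an adjusted limma p of 0.120, when both libraries numbered 2 were left out. That pair was chosen with these data known, so this p carries no separate weight. Groups that do not overlap with ALDH high the higher one were found in 3.67% of all genes.

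The antisense gene SRRM2-AS1 averaged 189 ± 45.6 normalized reads (SD, n = 3) in ALDH high, against 181 ± 29.8 (SD, n = 3) in ALDH low. It is far below SRRM2, and with ELOB it covers 2.63% of the exonic bases of SRRM2 on the opposite strand. The ratio of SRRM2 to SRRM1 reads was 5.13, 6.28 and 5.69 in ALDH high, against 6.21, 4.69 and 3.80 in ALDH low. The groups overlapped in this ratio.

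SRRM1, the coactivator that bridges SR proteins and the exon junction complex, had 2246, 2047 and 2252 normalized reads in ALDH high, against 1187, 2383 and 1918 in ALDH low. ALDH low 1 stood far below the others and ALDH low 2 was the highest library. On the log2 scale the difference was 0.31 (95% interval -0.19 to 0.81). It was 0.03 without ALDH low 1, 0.53 without ALDH low 2 and 0.58 without both libraries numbered 2. SRRM5 (ENSG00000226763, chr19:43596617-43614497) had 22.0, 31.0 and 28.6 normalized reads in ALDH high, against 20.8, 12.7 and 12.9 in ALDH low. The groups did not overlap, though ALDH high 1 and ALDH low 1 lay next to each other. The difference was 0.80 (-0.08 to 1.68). Reads here cannot be assigned to 1 gene with certainty, since ZNF428 on the opposite strand covers 18.5% of the exonic bases of SRRM5 and ZNF576 on the same strand covers 8.41%. SRRM3 had 19.9, 4.56 and 32.0 normalized reads in ALDH high, against 10.4, 23.4 and 15.0 in ALDH low. ALDH high held both extremes, and the difference was -0.07 (-1.51 to 1.37). Its sign turned with a pseudocount of 10, in edgeR and in DESeq2, and without ALDH high 2 or ALDH low 2, so no direction can be given for it.

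The 21 HNRNP genes split evenly, with 11 differences above 0 and 10 below, around a median of 0.03, and the split was the same without both libraries numbered 2. With total-count scaling, which moves the median of all genes to 0.06, 14 lay above 0 and 7 below, and the 36 genes together gave 20 above and 16 below in place of 16 above and 20 below. None passed the test.

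HNRNPC, which forms the core of the particle that measures nascent RNA length and shields it from cryptic exons, had the lowest HNRNP difference. HNRNPC (ENSG00000092199, chr14:21209136-21269494) had 20395, 17807 and 20404 normalized reads in ALDH high, against 24298, 20747 and 24083 in ALDH low. Every ALDH high library lay under every ALDH low library, with ALDH low 2 close to ALDH high 1 and 3. The means were 19535 ± 1497 (SD, n = 3) in ALDH high, against 23042 ± 1991 (SD, n = 3) in ALDH low. The log2 difference was -0.24 (95% interval -0.60 to 0.12, limma adjusted p = 0.984) and stayed between -0.31 and -0.17 in the 11 alternatives that could change it. HNRNPH1, a binder of G runs, was the only HNRNP gene with every ALDH high library above every ALDH low library. HNRNPH1 (ENSG00000169045, chr5:179614178-179634784) had 10941, 10556 and 10715 normalized reads in ALDH high, against 8455, 10276 and 10328 in ALDH low. The margin over ALDH low 2 and 3 was small, and ALDH low 1 stood apart below. On the log2 scale the difference was 0.15 (-0.18 to 0.49) and 0.06 without ALDH low 1.

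With SRSF3, SRRM2, SRRM5, HNRNPC and HNRNPH1, 5 of the 36 genes (13.9%) had groups that did not overlap, against 6.99% of all genes. Without ALDH high 2 the count was 13 (36.1%), where 22.1% of all genes did not overlap. Without ALDH low 2 it was 11 (30.6%), near the 28.3% of all genes. Without ALDH low 3 it was 9 (25%), against 15.2% of all genes. Without both libraries numbered 2 it was 20 (55.6%), against 48.2% of all genes.

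**Figure D4:**
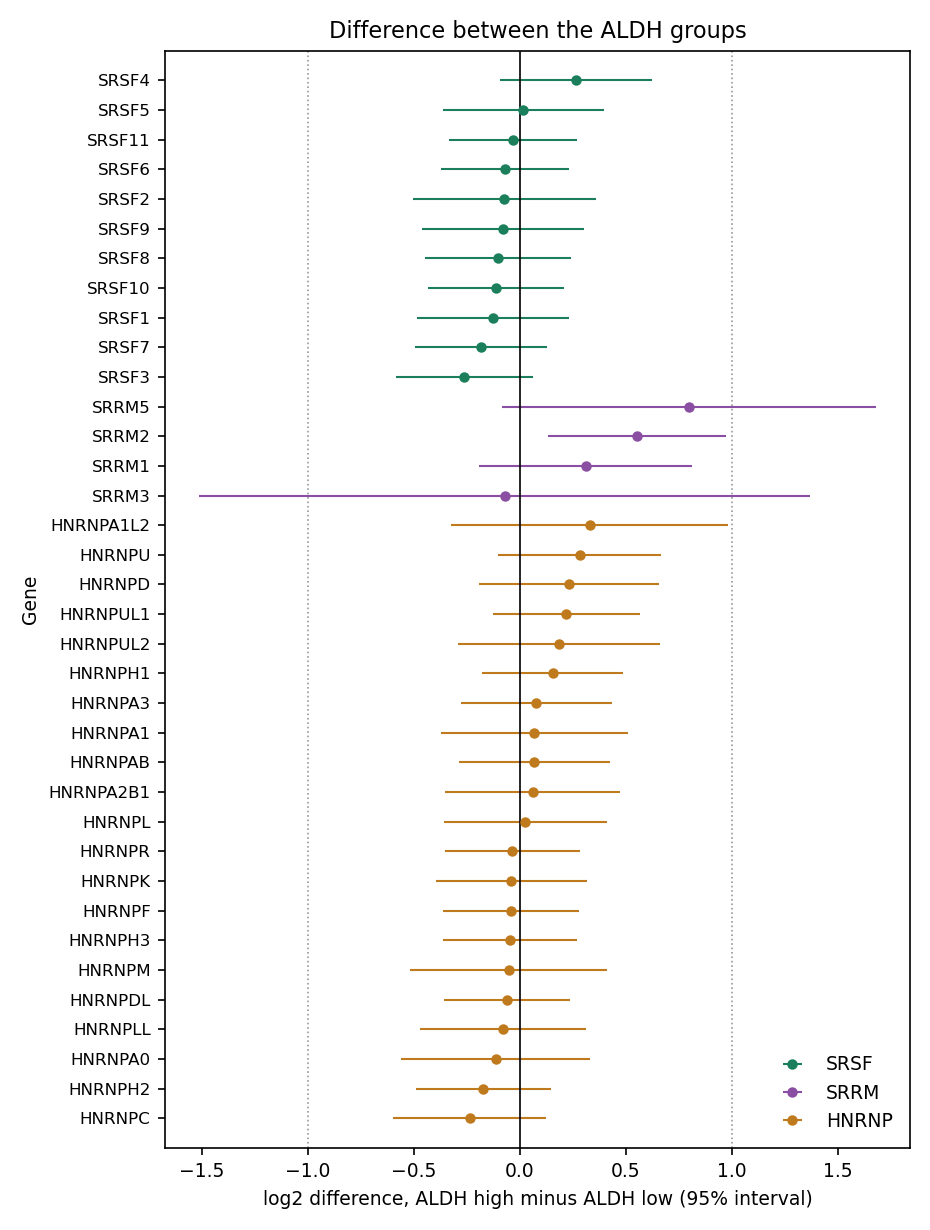
Points are log2 differences (ALDH high minus ALDH low) from limma and lines their 95% intervals, by family. Dotted lines mark 2-fold. The interval of SRRM2 (0.13 to 0.97) is the only one that does not cover 0, and those of SRRM3 and SRRM5 are the widest.

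The paralog HNRNPH2, on the X chromosome, ran the other way in value. HNRNPH2 had 2790, 3255 and 2716 normalized reads in ALDH high, against 3425, 3001 and 3432 in ALDH low, and its log2 difference was -0.17 (-0.49 to 0.15), or -0.32 without both libraries numbered 2. The read-through gene RPL36A-HNRNPH2 covers 16.3% of its exonic bases. The ratio of HNRNPH1 to HNRNPH2 reads was 3.92, 3.24 and 3.95 in ALDH high, against 2.47, 3.42 and 3.01 in ALDH low. ALDH low 2 exceeded ALDH high 2 in this ratio, so the groups overlapped.

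HNRNPU, a chromatin-associated scaffold protein, had 12529, 16253 and 12818 normalized reads in ALDH high, against 9827, 12959 and 11406 in ALDH low. ALDH high 2 was the highest library and ALDH low 2 lay inside the ALDH high range. Its log2 difference was 0.28 (-0.10 to 0.67), with 0.16 without ALDH high 2 and 0.18 without ALDH low 1. COX20 on the opposite strand covers 15.6% of its exonic bases. HNRNPD, also called AUF1, which binds AU-rich elements and speeds mRNA turnover, had 11659, 10155 and 11620 normalized reads in ALDH high, against 7135, 10825 and 11002 in ALDH low. ALDH low 1 alone lay under the ALDH high range, and the difference of 0.23 (-0.19 to 0.66) was 0.03 without that library and 0.39 without both libraries numbered 2. HNRNPA1L2 had 141, 83.9 and 167 normalized reads in ALDH high, against 84.0, 110 and 107 in ALDH low. ALDH high held both extremes, with a difference of 0.33 (-0.33 to 0.98). It was 0.13 without ALDH high 3, 0.21 without ALDH low 1, 0.62 without ALDH high 2 and 0.69 without both libraries numbered 2. HNRNPUL1, a relative of HNRNPU, averaged 5743 ± 444 normalized reads (SD, n = 3) in ALDH high, against 4959 ± 771 (SD, n = 3) in ALDH low, with a difference of 0.22 (-0.13 to 0.57).

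The most abundant HNRNP genes were close to level between the groups. HNRNPA1 had 52919, 52941 and 54405 normalized reads in ALDH high, against 41409, 52965 and 60190 in ALDH low. The ALDH high libraries lay close together, while ALDH low held the lowest and the highest value. The log2 difference was 0.07 (-0.37 to 0.51) and -0.08 without ALDH low 1. HNRNPA2B1, which also sorts microRNAs into exosomes, had 35795, 30224 and 34863 normalized reads in ALDH high, against 26680, 34949 and 35673 in ALDH low. ALDH low 1 was again the lowest library, and the difference of 0.06 (-0.35 to 0.48) became -0.07 without it. HNRNPK had 21296, 25172 and 21648 normalized reads in ALDH high, against 22882, 22762 and 24176 in ALDH low. ALDH high held both extremes, and the difference was -0.04 (-0.39 to 0.32). HNRNPF had 12339, 12762 and 12610 normalized reads in ALDH high, against 13771, 12939 and 12130 in ALDH low. ALDH low held both extremes, and the difference was -0.04 (-0.36 to 0.28). With total-count scaling the differences of HNRNPK and HNRNPF were both above 0, as was that of HNRNPK without ALDH high 1 (0.0049) and that of HNRNPF without ALDH low 1 (0.0048).

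HNRNPA0, an intronless hnRNP gene, had 10583, 12943 and 10475 normalized reads in ALDH high, against 10800, 10312 and 16335 in ALDH low. ALDH low 3 stood far above the rest, and the difference of -0.11 (-0.56 to 0.33) was 0.10 without it. It lay between -0.24 and -0.06 without any 1 of the other libraries and was -0.34 without both numbered 2. Differences of the other 9 HNRNP genes, namely HNRNPA3, HNRNPAB, HNRNPDL, HNRNPH3, HNRNPL, HNRNPLL, HNRNPM, HNRNPR and HNRNPUL2, ran from -0.08 for HNRNPLL to 0.19 for HNRNPUL2, and for all of them but HNRNPDL the sign turned without at least 1 library. The read-through gene HNRNPUL2-BSCL2 on the same strand covers 44.1% of the exonic bases of HNRNPUL2, so the level of HNRNPUL2 is uncertain. HNRNPL, which binds CA repeats, averaged 14037 ± 311 normalized reads (SD, n = 3) in ALDH high, against 13947 ± 2603 (SD, n = 3) in ALDH low. Pseudogene copies are a limit for HNRNPA1, HNRNPA3, HNRNPC, HNRNPK and HNRNPL, since only uniquely placed reads were counted. Similar sequence is also a limit for HNRNPA1L2, which averaged 116 normalized reads, against 52472 for HNRNPA1. Whether misplaced HNRNPA1 reads enter the level or the difference of HNRNPA1L2 was not tested. The 12 rows with pseudogene names averaged 12.2 to 295 normalized reads, far below their parent genes. The highest, HNRNPA1P48, is annotated as protein-coding. Reads that fit both a parent and a copy are in neither row, so these levels cannot show how many parent reads were lost.

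For many HNRNP genes 1 library stood apart. ALDH low 1 was the lowest library for 10 of the 21 HNRNP genes (47.6%), namely HNRNPA1, HNRNPA2B1, HNRNPA3, HNRNPAB, HNRNPD, HNRNPH1, HNRNPL, HNRNPM, HNRNPU and HNRNPUL2. It was the lowest for 28.8% of genes that averaged 1000 normalized reads or more. The median deviation from a gene's own mean there was -0.27 for HNRNP genes and -0.03 for those abundant genes on the log2 scale. The same library was the highest for HNRNPC, HNRNPDL, HNRNPF, HNRNPLL and HNRNPR. Without ALDH low 1, the HNRNP split was 8 above 0 and 13 below, and without ALDH low 3 it was 14 above and 7 below. ALDH low 3 was the highest library for 7 of 11 SRSF genes (63.6%), against 40.8% of abundant genes. ALDH low 2 lay inside the ALDH high range for 25 of the 36 genes (69.4%), as it did for 67.9% of abundant genes.

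The share of gene reads taken by the 36 genes was 1.23%, 1.26% and 1.20% in ALDH high, against 1.10%, 1.24% and 1.20% in ALDH low. The groups overlapped, and ALDH low 1 held the lowest share. The SRRM share was 0.0520%, 0.0572% and 0.0558% in ALDH high, against 0.0325%, 0.0518% and 0.0309% in ALDH low, which is mostly SRRM2. In bulk RNA, a lower level can come from fewer cells that express a gene or from less RNA per cell, and these cannot be told apart.

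The region just upstream of the start was read for the 34 genes matched in the RefSeq promoter table. SRSF2 and HNRNPA1 had no entry. For 31 of the 34 a GENCODE 29 start of the gene lies within 50 bases of the RefSeq start, and HNRNPA1L2, HNRNPH2 and SRSF8 have none that near. None of those 3 holds TATAAA. Motifs were searched on both strands in the 250 bases before the start, and the background is the 10501 promoters of genes in the table. TATAAA, the TATA box, was found in 5 of 34 (14.7%), against 5.27% of all promoters. These were SRSF3, SRSF7, HNRNPAB, HNRNPC and HNRNPD, whose log2 differences were -0.26, -0.18, 0.07, -0.24 and 0.23. TGACG, the core of cyclic AMP response elements, was found in 50% of the 34, against 29.7%, and in 51.6% of the 31, against 30.2% of all promoters with such a start. CCAAT was found in 13 of 20 HNRNP promoters (65%) and 2 of 10 SRSF promoters (20%), against 35.5%. GGGCGG, the GC box, was found in 17 of 20 HNRNP promoters (85%) and 3 of 10 SRSF promoters (30%), against 67.8%. CGGAAG, the core of ETS sites, was found in 32.4%, against 28.4%. A match is only a string in the window.

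The upstream stretches of SRSF3 and HNRNPC are printed because these genes had every ALDH high library under every ALDH low library and both hold TATAAA. Capitals mark TATAAA as well as CCAAT and likewise TGACG or their reverse complements, which do not overlap here, and only bases before any annotated exon are shown (RefSeq, GRCh38.p14). The SRSF3 stretch is chr6:36594112-36594352 on the plus strand (241 bases), and the HNRNPC stretch is chr14:21269495-21269692 on the minus strand (198 bases).
SRSF3: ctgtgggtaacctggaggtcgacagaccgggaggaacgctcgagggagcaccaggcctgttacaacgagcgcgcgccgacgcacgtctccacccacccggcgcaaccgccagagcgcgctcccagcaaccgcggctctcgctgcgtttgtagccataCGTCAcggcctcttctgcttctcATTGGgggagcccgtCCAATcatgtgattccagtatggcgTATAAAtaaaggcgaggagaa
HNRNPC: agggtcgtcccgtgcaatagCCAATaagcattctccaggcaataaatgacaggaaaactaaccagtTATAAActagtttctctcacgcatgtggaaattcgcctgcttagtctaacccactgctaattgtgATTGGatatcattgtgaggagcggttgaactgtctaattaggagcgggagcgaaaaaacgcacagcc
In the SRSF3 stretch, TATAAA lies close to the start with CCAAT and its reverse complement ahead of it. In the HNRNPC stretch, TATAAA lies between CCAAT and its reverse complement. It stands in the part of the stretch far from the start, unlike in SRSF3.

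Splicing genes outside the 3 families were described with the same fit, and none of the 181 gene rows in 7 lists passed the test. Among 34 SR-related proteins, 29 differences lay above 0 and 5 below, with a median of 0.07. Leaving out ALDH high 2 or ALDH low 3 gave 23 above and 11 below. TRA2B, a relative of the fly sex-determination splicing factor, had 4191, 4305 and 4201 normalized reads in ALDH high, against 5404, 4453 and 4651 in ALDH low. Its ALDH high libraries all lay under its ALDH low libraries, and the log2 difference was -0.19 (-0.50 to 0.12). RBM6, an RNA-binding regulator of alternative exons, averaged 1778 ± 74.4 normalized reads (SD, n = 3) in ALDH high, against 1616 ± 32.4 (SD, n = 3) in ALDH low, without overlap and with a difference of 0.14 (-0.16 to 0.43). In all, 4 of the 34 had groups that did not overlap (11.8%), 3 higher in ALDH high and 1 lower, against 6.99% of all genes. The values of TRA2B and RBM6 are given because they were the most abundant of these. The others were RBM5, with a difference of 0.09, and SCAF4, which binds the tail of RNA polymerase II and whose difference of 0.37 (-0.03 to 0.76) was the highest of the list. SCAF4 had 412, 536 and 494 normalized reads in ALDH high, against 341, 382 and 390 in ALDH low, and was added after its values were seen.

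Among 22 SR kinases, phosphatases and import factors, 19 differences lay above 0 and 3 below, with a median of 0.08. Without ALDH high 2 the split was 12 above and 10 below, and in edgeR it was 15 above and 7 below. CLK2, a nuclear kinase of SR proteins, had 2131, 1994 and 2142 normalized reads in ALDH high, against 1685, 1898 and 1842 in ALDH low. The groups did not overlap, and the log2 difference was 0.21 (-0.09 to 0.51). AKAP17A, a speckle protein that anchors protein kinase A, averaged 1037 ± 52.9 normalized reads (SD, n = 3) in ALDH high, against 922 ± 38.4 (SD, n = 3) in ALDH low, also without overlap and with a difference of 0.17 (-0.15 to 0.48). No other gene of this list had groups that did not overlap, which makes 2 of 22 (9.09%), against 6.99% of all genes.

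The other RNA-binding splicing regulators, 42 rows that include PTBP1 and the PCBP genes, had 29 above 0 and 13 below, with median 0.05. MATR3 was counted under more than 1 row, at 0.04 and 0.06, and CELF2, also listed, had no row. Total-count scaling gave 39 above and 3 below, but it also put 59.8% of all genes above 0, against 52.3% in the main fit. Leaving out ALDH high 2 or ALDH low 1 gave 22 above and 20 below. No gene of this list had groups that did not overlap. The 21 genes of U2 and U2AF recognition had 13 above 0 and 8 below, with median 0.12, and 11 above and 10 below with median 0.04 without ALDH low 1. The 11 U1 and Sm core genes had 2 above 0 and 9 below, with median -0.11, and gave 7 above and 4 below without ALDH high 2 or without ALDH low 3. In the 35 genes of the U4/U6.U5 particle and the catalytic core, 21 lay above 0 and 14 below, with median 0.03, and without ALDH low 1 the split was 16 above and 19 below. LSM5, part of the ring that binds U6 RNA, had 1215, 854 and 1215 normalized reads in ALDH high, against 2092, 1244 and 1382 in ALDH low. The groups did not overlap, though ALDH low 1 was far above the rest. LSM5 differed by -0.50 on the log2 scale (-0.99 to -0.01), with an unadjusted limma p of 0.0453 and a Benjamini-Hochberg adjusted p of 0.984. It was -0.28 without ALDH low 1 and -0.33 without ALDH high 2. PRPF4, a protein of the U4/U6 particle, averaged 1299 ± 48.6 normalized reads (SD, n = 3) in ALDH high, against 1161 ± 91.4 (SD, n = 3) in ALDH low, with a difference of 0.16 (-0.15 to 0.48), which was 0.10 without ALDH low 1. LSM6, of the same ring as LSM5 and added after its values were seen, also had groups that did not overlap. It differed by -0.26 (-0.67 to 0.15), and by -0.12 without ALDH high 2. These 3 are 8.57% of the 35 genes, against 6.99% of all genes. The 16 genes of the exon junction complex and nonsense-mediated decay had 10 differences above 0 and 6 below, with median 0.0028.

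**Figure D5:**
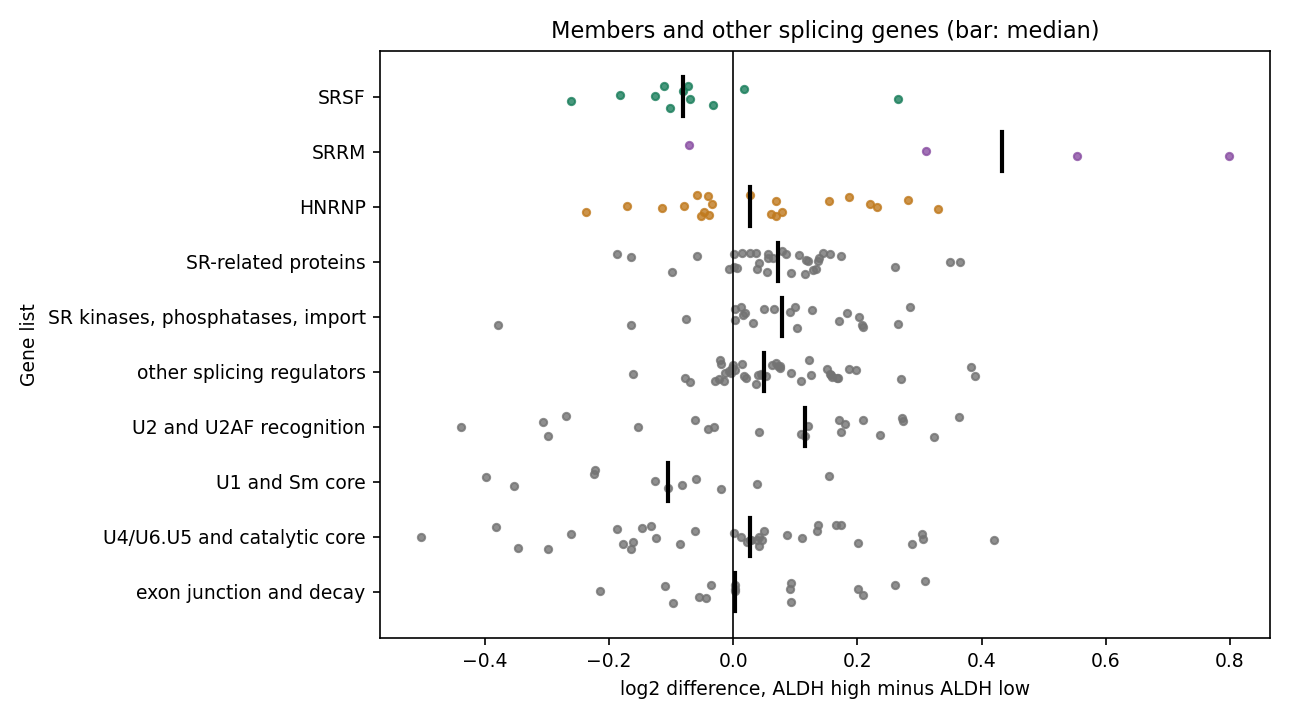
Each point is the log2 difference (ALDH high minus ALDH low) of 1 gene row, by list, and each bar a list's median. The 3 families stand above the 7 lists of other splicing genes, whose medians run from -0.11 for U1 and Sm core to 0.12 for U2 and U2AF recognition.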

How the data were processed

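RNA was measured in 6 samples, 3 ALDH high and 3 ALDH low. Reads were processed with GRCh38 as the build and with Trimmomatic 0.36, STAR 2.5.2b, DESeq2 and Subread 1.5.2 (featureCounts), per the submitters' processing notes. Per the labels, only uniquely placed exonic reads were counted. The authors deposited 1 table whose signal per gene and sample is a read count divided by a size factor per sample. The authors' log2 fold changes (positive for genes higher in ALDH low) and p-values were deposited beside it. Its lowest row mean was 9.65, so totals cover listed rows only. In every sample at least 99.99% of values came to whole reads (within 0.02 of a read), so reads were recovered, 23817310 to 30617873 per sample. These totals limit precision for counting error only.

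The 46 spike-in rows were set aside. GENCODE 29 matched 15939 of 16000 gene identifiers, restored 21 names that had turned into dates, and gave coordinates (counted from 1) and merged exon lengths. Reads per kilobase use those lengths. The main test was limma 3.58.1 (R 4.3.3) on log2(normalized count + 1), with its trend of variance on mean, fitted over all 16000 genes with no further filter, Benjamini-Hochberg adjusted, threshold 0.05. The scale understates changes of low genes. Alternatives were edgeR 4.0.16 (quasi-likelihood) and DESeq2 1.42.0 on recovered reads, a pseudocount of 10, a mean of at least 100, total-count scaling, no trend, a replicate block and leaving out libraries. Paralog ratios used exact permutation tests.

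The members, the gene lists and the pair of libraries left out together were chosen with earlier results of these data known. Values in every sample are given for all SRRM genes, members whose groups do not overlap and the lowest gene of each family. They are also given for the 4 most abundant SRSF and HNRNP genes per exon length and the 3 highest and 3 lowest differences of each of those families. The 2 most abundant genes per list whose groups do not overlap were named. Of these, TRA2B, CLK2 and LSM5 have every value, while RBM6, AKAP17A and PRPF4 have means. SCAF4, added later, also has every value. Values of other genes are means or differences, and were added to these. Motifs were matched as exact strings on both strands, where matches may overlap.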

Additional observations from a re-analysis of the deposited data

How the results depend on the processing

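The replicate block, the fit without a trend and the filter at a mean of 100 leave a difference as it is. Over the other 11 alternatives, 36 of 396 differences of the 36 genes turned sign, 25 of them on leaving out 1 library, and 17 genes kept their sign throughout. Among the 12 genes not given by library, 10 turned at least once. No library left out alone gave a call among the 36 or among all genes (0 to 0), and without both libraries numbered 2 all genes gave 107 calls and the 36 gave 0. The count of the 36 whose groups do not overlap ran from 5 to 13 leaving out 1 library and was 20 without both numbered 2, while the share of all genes ran from 10.8% to 28.3% and was 48.2%. The labels do not say whether samples with the same number were paired. Deviations of same-numbered samples correlated at -0.46, -0.43 and 0.14 across genes. Differences between single libraries also enter these correlations, so they cannot decide whether samples were paired. The replicate block gave 0 calls, but so did the main fit without it, so that count cannot decide it either. Family medians leaving out 1 library ran from -0.15 to -0.01 (SRSF), 0.24 to 0.61 (SRRM) and -0.05 to 0.15 (HNRNP). The sign turned under total-count scaling for HNRNPF (0.0040), HNRNPK (0.0054), SRSF11 (0.0113) and HNRNPR. SRSF5 turned in edgeR (-0.0062) and DESeq2 (-0.0047). SRRM3 turned with pseudocount 10 (0.034), in edgeR (0.19), in DESeq2 (0.20) and without both numbered 2 (0.96). Leaving out 1 library, the log2 difference ran from -0.24 to 0.10 for HNRNPA0, -0.08 to 0.19 for HNRNPA1, -0.0743 to 0.14 for HNRNPA2B1, -0.0867 to 0.0048 for HNRNPF, -0.12 to 0.0049 for HNRNPK, -0.61 to 0.67 for SRRM3, -0.065 to 0.0214 for SRSF11, -0.15 to 0.16 for SRSF5 and -0.18 to 0.0604 for SRSF9. The cause of these turns was not tested. Depth limits SRRM3 and SRRM5, at 17.5 and 21.3 mean normalized reads.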
